A study of Homo sapiens with 9 samples.

Results

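The 10 genes described here encode members of the human fibroblast growth factor (FGF) family: FGF2, FGF4, FGF8, FGF17, FGF18, FGF22, FGF19, FGF11, FGF12 and FGF13. They were taken by gene symbol from a table of read counts with 56312 gene entries, in which each symbol had 1 entry, and all 10 passed the expression filter that left 24187 genes for testing. The cells were HNES1, a wild-type line of naive pluripotent stem cells derived from a human embryo, sampled on day 5 after withdrawal of naive medium. All groups had been grown on irradiated mouse embryonic fibroblast feeders in PXGL, a naive medium that holds the MEK inhibitor PD0325901, LIF, the protein kinase C inhibitor Gö6983 and the tankyrase inhibitor XAV939, and were then seeded on Geltrex. Compound or vehicle was added a day before PXGL was replaced on day 0 by N2B27 with XAV939, and was renewed daily in every group. The first group of 3 libraries received DMSO as vehicle. The second received 2.5 µM UNC6852, a PROTAC that degrades EED, a subunit of Polycomb repressive complex 2 (PRC2), and is named PROTAC in the labels. The third received 1 µM UNC1999, an inhibitor of the catalytic PRC2 subunits EZH1 and EZH2, and is named UNC in the labels. The comparisons ask how loss of PRC2 activity by either route changes RNA levels during the transition. The model is 1 cell line at 1 time point, the doses of the compounds differ, and RNA of the mouse feeders was not analysed here.

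Most FGFs are secreted proteins that bind the receptor tyrosine kinases FGFR1 to FGFR4 together with heparan sulfate chains on the cell surface, and the bound receptor signals through the adaptor FRS2, RAS and the kinases MEK and ERK. FGF2, FGF4, FGF8, FGF17, FGF18 and FGF22 act on nearby cells in this way, whereas FGF19 is a hormone-like ligand that binds heparan sulfate weakly and needs the co-receptor KLB. FGF11, FGF12 and FGF13 are FGF homologous factors: they share the FGF fold, are not secreted in the classical way, and bind voltage-gated sodium channels inside the cell. FGF4 is a known product of pluripotent cells whose gene is driven by OCT4 and SOX2, and FGF2 is a standard additive of media for primed human pluripotent cells.

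Total counts were 31651742 (UNC6852 library 3) to 101081643 (UNC1999 library 1) per library. Levels are given as CPM, the usual depth-scaled read count, after TMM scaling, and differences as log2 fold changes from edgeR's quasi-likelihood test with Benjamini-Hochberg adjustment over all 24187 genes; a gene was called at an adjusted p under 0.05. The fit by group treats the 3 libraries of a group as independent, and a second fit adds the replicate number as a block, since deviations from the group means were shared by same-numbered libraries. On the first principal component, which held 26.7% of the variance, number 1 stood apart in all 3 groups, and on the second (18.5%) UNC6852 library 3 and UNC1999 library 2 lay farthest from the rest. The summed level of 7 pluripotency markers, all at 1 CPM or more, was 4844 to 5181 CPM in DMSO. It was 5226 to 5515 CPM in UNC6852 and 5258 to 5679.5 in UNC1999, so both treated groups lay above DMSO. Of the 7, LIN28A had the highest mean level, at 1697.0 CPM. POU5F1 averaged 727.0, 747.0 and 714.0 CPM in DMSO, UNC6852 and UNC1999, and its libraries overlapped, as did those of NANOG and SALL4. For SOX2 all treated libraries lay above DMSO. The 11 naive markers summed to 1811 to 2031, 1887 to 1989 and 1718 to 1951 CPM, and the groups overlapped. Of the markers of other cell types, 6 fibroblast genes, 2 of them at 1 CPM or more, summed to 232.0 to 284.0 CPM in DMSO, 229.9 to 254.0 in UNC6852 and 158.0 to 207.0 in UNC1999, with LUM at 0 in every library. For 6 genes of primitive streak and mesoderm, 4 of them at 1 CPM or more, these ranges were 14.2 to 16.7, 11 to 14.4 and 8.85 to 9.76 CPM, and for 6 amnion genes, again 4 of them at 1 CPM or more, 9.42 to 11.3, 8.35 to 9.4 and 5.66 to 7.7 CPM. The sum of 6 neural genes, 3 of them at 1 CPM or more and most of it NES, was 465.0 to 503.0 CPM in DMSO, higher in UNC6852 at 515.0 to 549.8, and 451.0 to 508.0 in UNC1999. Sums of trophoblast, endoderm, and formative and primed markers overlapped with DMSO in both treated groups. The part of these marker differences in the FGF results was not tested.

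FGF4, FGF13, FGF19 and FGF12 stood above DMSO after UNC1999: for each of these 4 genes all 3 UNC1999 libraries lay above all 3 DMSO libraries, and for no member did they all lie below. Over all genes tested, 8.34% were separated upwards in this way and 9.07% downwards. By group, 2 of the 10 members (FGF4 and FGF13) were called higher and 0 lower, where 0.719% of all genes were called, 0.318% higher and 0.401% lower. With the replicate block, 5 of 10 were called higher (FGF4, FGF13, FGF19, FGF12 and FGF17) and 1 lower (FGF2), where 7.04% and 6.46% of all genes were called. All 3 same-numbered pairs of libraries were higher for FGF4, FGF13, FGF19, FGF12 and FGF17, as for 23.0% of all genes, and lower for FGF2 and FGF18, as for 24.1%. The median log2 fold change of the 10 members was 0.11, and that of all genes was -0.008.

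UNC6852 separated the same 4 genes upwards from DMSO and FGF18 downwards, against 6.07% and 5.44% of all genes. No member was called by group in edgeR, DESeq2 or limma-voom, and no gene of the 24187 was called in edgeR (0.0%). By group in edgeR, 5 members had an unadjusted p under 0.05. The share of all genes under that threshold was not computed, so this count is not a result about the members. With the block, 3 of 10 were called higher (FGF4, FGF13 and FGF19), where 2.01% of all genes were, and 1 lower (FGF18), where 0.984% were, or 2.99% in either direction. All 3 pairs were higher for FGF4, FGF13, FGF19 and FGF12, as for 18.5% of all genes, and lower for FGF18, as for 17.8%. The median log2 fold change of the members was 0.15 by group, and that of all genes -0.006. Both compounds were compared with the same DMSO libraries, so the 2 sets of values are not independent and are given side by side.

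UNC6852 at 2.5 µM and UNC1999 at 1 µM were also compared with each other, and there compound and dose cannot be told apart. By group 0 of 10 members were called in edgeR, and 0.00827% of all genes were. An unadjusted p under 0.05 was seen for 1 member in edgeR, again without a share of all genes to set beside it. Of the members, limma-voom called none by group and DESeq2 called 1. With the block FGF4 was lower and FGF2 higher in UNC6852 than in UNC1999, where 2.91% of all genes were called, 0.74% lower and 2.17% higher. All 3 libraries lay apart for FGF4, lower in UNC6852, and for FGF8, higher in UNC6852, against 3.93% and 5.16% of all genes (9.09% in either direction). All 3 pairs were lower for FGF4, FGF17, FGF19 and FGF13, as for 15.8% of all genes, and higher for FGF2, FGF8 and FGF11, as for 17.8%. The plot of log2 fold changes shows both fits for every member and comparison.

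**Figure D1:**
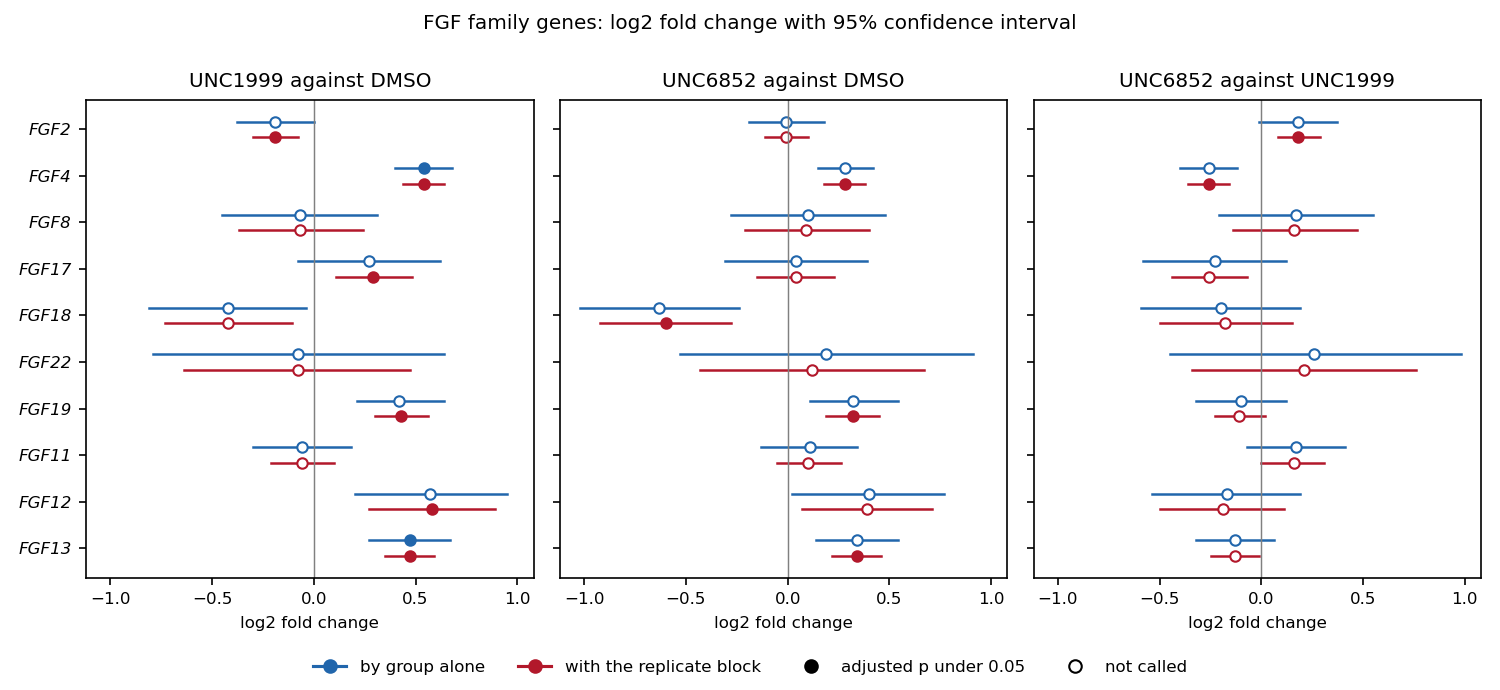
Log2 fold change (x axis) of the 10 FGF family genes (rows) in 3 comparisons (panels), with 95% confidence intervals, by group (blue) and with the replicate block (red); filled points have an adjusted p under 0.05. FGF4 and FGF13 are filled in both fits for UNC1999 against DMSO, no member is filled by group in the other panels, and the intervals of FGF22, the member with the fewest reads, are the widest.

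Levels between genes were compared per kilobase of exon, using exon lengths of GENCODE 29. In DMSO, FGF4 was the most abundant member at 50.4 ± 1.10 CPM per kilobase (SD, n = 3), followed by FGF2 at 21.7 ± 1.2 and FGF19 at 9.63 ± 0.858. FGF17 (2.83 ± 0.534) and FGF11 (2.82 ± 0.368) came next and their libraries overlapped. FGF13 (1.75 ± 0.12) overlapped with FGF8 (1.71 ± 0.318), and FGF8 with FGF18 (1.49 ± 0.187). FGF22 (0.263 ± 0.0232) and FGF12 (0.261 ± 0.0379) were lowest and overlapped with each other. Every other pair of neighbours in this order was separated in all 3 libraries. The length chosen moves part of this order: with the longest protein-coding transcript in place of all exons, FGF17 stood at 5.43, FGF11 at 5.13, FGF8 at 2.81, FGF22 at 0.558 and FGF12 at 0.355 CPM per kilobase, while FGF4, FGF2 and FGF19 kept their values. FGF13 had 20.7 kb of annotated exon, so its read count places it higher among the members than its level per kilobase.

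**Figure D2:**
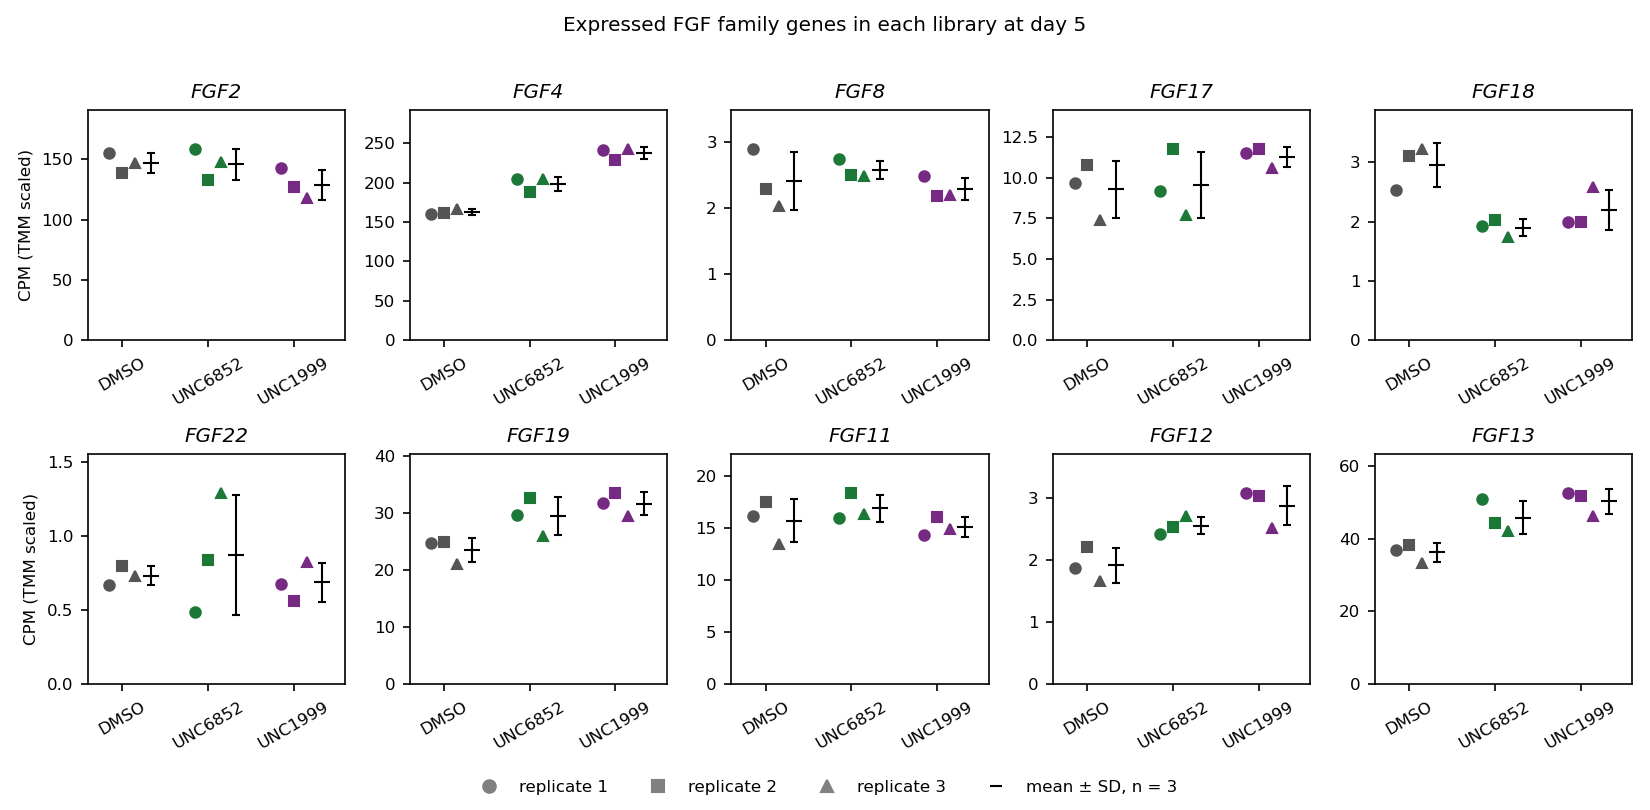
TMM-scaled CPM (y axis, linear and from 0, with its own scale in each panel) of the 10 genes in the 9 libraries at day 5; symbols give the replicate number and bars the mean ± SD of 3 libraries. FGF4 climbs from DMSO to UNC6852 to UNC1999 without overlap, and FGF13, FGF19 and FGF12 lie above DMSO with both compounds.

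FGF4, the secreted ligand most typical of pluripotent cells (ENSG00000075388, GRCh38 chromosome 11, 69771022 to 69775341, minus strand), showed the smallest spread between libraries and the clearest order of the groups. Its levels were 160.3, 162.0 and 167.0 CPM in DMSO libraries 1 to 3, 204.0, 188.0 and 204.0 with UNC6852, and 241.0, 228.0 and 243.0 with UNC1999. No library of one group reached the range of another, and such a rise through the 3 groups was seen in 0.595% of all genes. UNC1999 raised FGF4 by 0.54 on the log2 scale (SE 0.0638, fold 1.46 with a 95% interval of 1.32 to 1.60, adjusted p = 0.00363, higher in 3 of 3 pairs of libraries with the same number), and with the block the adjusted p was 4.12e-10. For UNC6852 the log2 fold change was 0.28 (SE 0.0637, fold 1.22, interval 1.11 to 1.34) with an adjusted p of 0.775 by group, and FGF4 was called with the block at 0.000594. Between the compounds, FGF4 was lower with UNC6852 by a log2 fold change of -0.26 (SE 0.0493 and adjusted p = 0.000892 with the block, 0.315 by group). The call for UNC1999 by group held without any 1 of the 9 libraries (adjusted p up to 0.0309) and was lost when all libraries of number 2 (0.0574) or number 3 (0.416) were left out, with log2 fold changes of 0.56 and 0.55. In these bulk libraries, a change in the number of cells that express a gene and a change in RNA per cell cannot be told apart.

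FGF2, the ligand that signals broadly through the FGF receptors (ENSG00000138685, chromosome 4, 122826682 to 122898236, plus strand), did not follow FGF4. It measured 155.0, 139.0 and 147.0 CPM in DMSO, 159.0, 133.0 and 148.0 with UNC6852, and 143.0, 127.0 and 118.0 with UNC1999. UNC1999 libraries 2 and 3 were the lowest of the 9, while UNC1999 library 1 lay inside the DMSO range. For UNC1999 the log2 fold change was -0.19 (SE 0.0871, adjusted p = 0.407 by group) and was called with the block (SE 0.0525, adjusted p = 0.0119, lower in 3 of 3 pairs). That call was lost without DMSO library 2 (0.0551), DMSO library 3 (0.129) or UNC1999 library 3 (0.192, log2 fold change -0.12). For UNC6852 the log2 fold change was -0.01 (95% interval -0.19 to 0.18, adjusted p = 0.999 by group). FGF2 was higher with UNC6852 than with UNC1999 by 0.18 with the block (adjusted p = 0.0481), and this call held only without DMSO library 1. The adjusted p was 0.0599 and 0.0716 without DMSO libraries 2 and 3, 0.0907, 0.0651 and 0.290 without UNC6852 libraries 1 to 3, and 0.112, 0.0705 and 0.455 without UNC1999 libraries 1 to 3. FGF2 is also made by fibroblasts. The summed fibroblast markers, of which only 2 of 6 reached 1 CPM, were lower in the UNC1999 libraries, as given above. Whether this bears on the FGF2 values was not tested. The antisense neighbour NUDT6 overlaps 9540 bases of FGF2 and had 2.94% of its count.

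The number of FGF4 reads per FGF2 read within a library, which does not depend on scaling, was 1.03, 1.16 and 1.14 in DMSO, 1.28, 1.42 and 1.38 with UNC6852, and 1.69, 1.80 and 2.06 with UNC1999. The group means were 1.11 ± 0.0691, 1.36 ± 0.0679 and 1.85 ± 0.190 (SD, n = 3), and no library of one group overlapped with those of another. FGF4 alone already separated the groups in this order, so the ratio is a description and not a further test. Per kilobase of exon each of these ratios is 2.10 times as large, since FGF4 is the shorter transcript. A like ratio of FGF19 to FGF4, its neighbour on chromosome 11, was 0.145 ± 0.0158, 0.149 ± 0.0235 and 0.134 ± 0.0126, and there the groups overlapped.

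**Figure D3:**
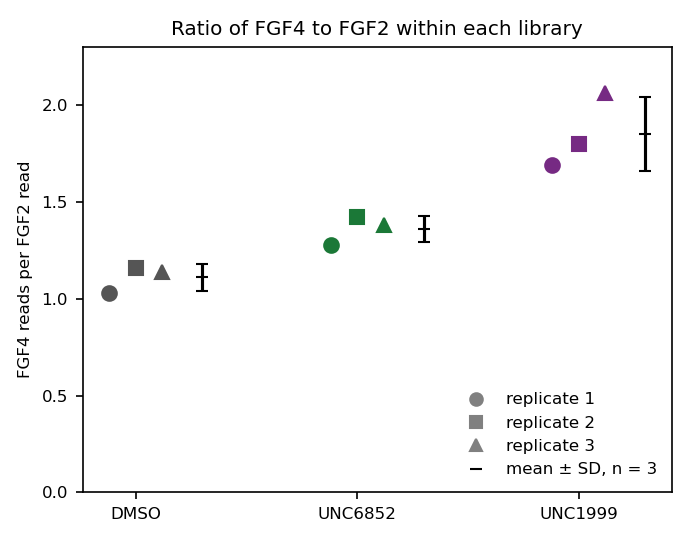
FGF4 reads per FGF2 read (y axis, from 0) in each of the 9 libraries by group; symbols give the replicate number and bars the mean ± SD of 3 libraries. The ratio is lowest in DMSO (1.03 to 1.16), intermediate with UNC6852 (1.28 to 1.42) and highest with UNC1999 (1.69 to 2.06).

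FGF8, FGF17 and FGF18 form a subfamily of ligands known from gastrulation, the brain and the skeleton, and FGF17 was the most abundant of the 3. FGF17 (ENSG00000158815, chromosome 8, 22042398 to 22048809, plus strand) measured 9.71, 10.8 and 7.38 CPM in DMSO, 9.22, 11.8 and 7.73 with UNC6852, and 11.5, 11.8 and 10.6 with UNC1999. Library 3 was the lowest of each group, and that of UNC1999 fell inside the DMSO range. UNC1999 gave a log2 fold change of 0.27 by group (SE 0.162, adjusted p = 0.561), and with the block it was 0.29 and called (SE 0.0917, adjusted p = 0.0272). This call was lost without DMSO library 2 (0.0649) or 3 (0.199), or UNC1999 library 1 (0.112) or 3 (0.276, log2 fold change 0.19). For UNC6852 the log2 fold change was 0.04 (95% interval -0.31 to 0.39).

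FGF18 (ENSG00000156427, chromosome 5, 171419647 to 171457626, plus strand) was the only member with all UNC6852 libraries below DMSO. Its levels were 2.53, 3.10 and 3.23 CPM in DMSO, 1.93, 2.03 and 1.74 with UNC6852, and 2.00, 1.99 and 2.58 with UNC1999, resting on 55 to 261 reads per library. UNC1999 library 3 reached just above the lowest DMSO library. UNC6852 gave a log2 fold change of -0.63 by group (SE 0.180, adjusted p = 0.938) and -0.60 with the block (SE 0.157, adjusted p = 0.0268, lower in 3 of 3 pairs). The call with the block was lost without DMSO library 2 (0.153) or 3 (0.132), or UNC6852 library 2 (0.0865) or 3 (0.180). For UNC1999 it was -0.42 (SE 0.178, adjusted p = 0.341 by group and 0.0650 with the block). FGF8 (ENSG00000107831, chromosome 10, 101770109 to 101780371, minus strand), at 2.90, 2.29 and 2.03 CPM in DMSO, 2.74, 2.50 and 2.49 with UNC6852, and 2.49, 2.19 and 2.2 with UNC1999, was not called in any comparison in either fit. Its UNC6852 libraries lay at or above 2.49 CPM and its UNC1999 libraries at or below it, a separation too small to show at this precision (log2 fold change 0.17, 95% interval -0.21 to 0.55, by group).

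FGF22 (ENSG00000070388, chromosome 19, 639879 to 644373, plus strand), a ligand of the FGF7 subfamily known from synapses and skin, had 22 to 70 reads per library. Levels were 0.667, 0.796 and 0.731 CPM in DMSO, 0.486, 0.840 and 1.29 with UNC6852, and 0.673, 0.561 and 0.826 with UNC1999. The highest and the lowest library both belonged to the UNC6852 group. The log2 fold change was 0.19 for UNC6852 (95% interval -0.53 to 0.91) and -0.08 for UNC1999 (-0.79 to 0.64), so neither a rise nor a fall within these bounds could be seen.

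Promoter sequence was looked at for the members that had an entry in the RefSeq promoter table (GRCh38.p14). It matched 6 of the 10 genes (FGF2, FGF11, FGF12, FGF13, FGF18 and FGF22) at 10 transcript starts, and FGF4, FGF8, FGF17 and FGF19 were not matched. The 250 bases before each start were searched on both strands for 5 motifs: the octamer ATGCAAAT bound by OCT4 and its relatives, the SOX core CATTGT, the GC box GGGCGG, and the TATA elements TATAAA and TATATA, which can overlap each other. Of 35116 promoters of this length, these letters were present in 1.63%, 9.29%, 42.6%, 10.7% and 3.73%. The median promoter had 58.0% G and C and 11 CpG dinucleotides. Reads were counted per gene, so they do not show which start was used, and neither PRC2 binding nor its histone mark was measured here. The promoter of FGF18, the member lower with UNC6852, is shown for its 1 SOX core, 89 bases before the start, and 3 GC boxes (capitals), on chr5:171419397-171419646, plus strand. It has 78.8% G and C and 31 CpG dinucleotides. GC boxes and CpG dinucleotides were not particular to members that differed. The promoter of FGF22, which was not called, has 6 GC boxes, 78.0% G and C and 35 CpG dinucleotides. That of FGF2 has 3 GC boxes, 75.2% G and C and 33 CpG dinucleotides, and neither holds a SOX core.
FGF18: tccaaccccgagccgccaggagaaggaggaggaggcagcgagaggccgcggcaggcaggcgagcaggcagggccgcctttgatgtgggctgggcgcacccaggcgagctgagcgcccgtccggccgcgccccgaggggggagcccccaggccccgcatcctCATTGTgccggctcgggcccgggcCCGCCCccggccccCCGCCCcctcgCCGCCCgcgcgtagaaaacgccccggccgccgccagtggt

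FGF19, the endocrine ligand of the family (ENSG00000162344, chromosome 11, 69698238 to 69704022, minus strand), lay above DMSO with both compounds. It measured 24.7, 24.9 and 21.1 CPM in DMSO, 29.7, 32.7 and 26.0 with UNC6852, and 31.8, 33.6 and 29.6 with UNC1999. Every treated library was above every DMSO library, library 3 was the lowest of each group, and the 2 treated groups overlapped. The log2 fold change for UNC1999 was 0.42 by group (SE 0.101, fold 1.34, adjusted p = 0.0766) and 0.43 with the block (SE 0.0632, adjusted p = 6.13e-06), where it was called with each of the 9 libraries left out in turn. For UNC6852 it was 0.32 (SE 0.101, adjusted p = 0.938 by group) and was called with the block (SE 0.0638, adjusted p = 0.00249), a call lost without UNC6852 library 2 (0.0529). The co-receptors that FGF19 and its relatives use were near the limit of detection: KLB had 84 reads and KL 2 reads over all 9 libraries.

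FGF19 and FGF4 lie on the same strand of chromosome 11, with starts 71.3 kb apart, beside CCND1, the cyclin D1 gene, and LTO1, a gene for an iron-sulfur protein maturation factor. CCND1, whose start is 62.9 kb from that of FGF19, measured 177.0 ± 12.5 CPM in DMSO, 217.0 ± 13.0 with UNC6852 and 219.0 ± 12.7 with UNC1999 (SD, n = 3). With the block it was higher with UNC1999 (log2 fold change 0.31, adjusted p = 3.31e-05; 0.0847 by group) and with UNC6852 (0.30, 0.000509; 0.938 by group). LTO1, whose annotated end overlaps that of CCND1 on the other strand, was lower with both: it measured 22.3 ± 1.81, 18.7 ± 0.759 and 18.3 ± 1.49 CPM. Its log2 fold change was -0.28 with UNC1999 (adjusted p = 0.00399 with the block, 0.212 by group) and -0.25 with UNC6852 (0.0389 with the block, 0.973 by group), and the latter call held only without UNC1999 library 3: the adjusted p was 0.0708, 0.0928 and 0.221 without DMSO libraries 1, 2 and 3, 0.176, 0.0712 and 0.154 without the UNC6852 libraries in that order, and 0.0548 and 0.0636 without UNC1999 libraries 1 and 2. Whether reads were counted by strand is not given in the sources used here, so reads of LTO1 and CCND1 in the overlap cannot be told apart. FGF3, a family member 44.1 kb on the other side of FGF4, had 32 reads in all libraries and was not tested. ENSG00000298300, an entry with 177 reads beside CCND1, was tested and not called (adjusted p = 0.264 with the block).

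FGF13, an FGF homologous factor that also binds microtubules in neurons (ENSG00000129682, chromosome X, 138614727 to 139222777, minus strand), was the second member called by group. Its levels were 37.0, 38.2 and 33.4 CPM in DMSO, 51.0, 44.3 and 42.1 with UNC6852, and 52.6, 51.8 and 46.2 with UNC1999. All treated libraries exceeded all DMSO libraries, library 3 was lowest in each group, and the treated groups overlapped. UNC1999 raised FGF13 by 0.47 on the log2 scale (SE 0.0905, fold 1.39, interval 1.21 to 1.59, adjusted p = 0.0372 by group and 2.83e-07 with the block, higher in 3 of 3 pairs). By group the call was close to the threshold. It was lost when any single library other than UNC6852 library 1 was left out: the adjusted p was 0.121, 0.0865 and 0.146 without DMSO libraries 1, 2 and 3, 0.0511 and 0.0598 without UNC6852 libraries 2 and 3, and 0.0508, 0.115 and 0.0892 without UNC1999 libraries 1, 2 and 3. The log2 fold change stayed between 0.42 and 0.53, and with the block the call held without each library (adjusted p up to 0.00012). For UNC6852 the log2 fold change was 0.34 (SE 0.0906, adjusted p = 0.938 by group), and FGF13 was called with the block (SE 0.0588, adjusted p = 0.000559). The antisense gene FGF13-AS1 had 2.76% of the FGF13 count.

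The 2 RefSeq starts of FGF13 differ in base composition and are shown for that contrast, both on the minus strand of chromosome X. The promoter at chrX:139205024-139205273 has 70.4% G and C and 29 CpG dinucleotides, and holds the overlapping elements TATAAA and TATATA (capitals), found 30 and 28 bases before the start, the first on the opposite strand. The other, at chrX:138739354-138739603, has 36.4% G and C, 0 CpG dinucleotides and no match to any motif searched. Neither window overlaps a GENCODE 29 exon of the gene.
FGF13, CpG-rich start: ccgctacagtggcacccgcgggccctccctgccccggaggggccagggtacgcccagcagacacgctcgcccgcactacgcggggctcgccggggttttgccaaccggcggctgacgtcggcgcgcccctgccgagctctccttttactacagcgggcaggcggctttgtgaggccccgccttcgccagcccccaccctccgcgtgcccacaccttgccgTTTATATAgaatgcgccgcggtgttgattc
FGF13, CpG-free start: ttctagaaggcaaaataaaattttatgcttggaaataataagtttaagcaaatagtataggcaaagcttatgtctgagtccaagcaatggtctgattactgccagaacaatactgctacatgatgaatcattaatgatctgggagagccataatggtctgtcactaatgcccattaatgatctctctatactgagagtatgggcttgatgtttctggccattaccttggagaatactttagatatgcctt

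FGF12, a homologous factor of heart and brain (ENSG00000114279, chromosome 3, 192139390 to 192767764, minus strand), had a far lower read count and lay above DMSO as FGF13 did. It measured 1.87, 2.22 and 1.67 CPM in DMSO, 2.43, 2.53 and 2.71 with UNC6852, and 3.09, 3.03 and 2.52 with UNC1999, from 71 to 321 reads per library. All treated libraries were above DMSO, and UNC1999 library 3 fell among the UNC6852 values. Against DMSO, UNC1999 gave a log2 fold change of 0.57 by group (SE 0.172, fold 1.49, interval 1.15 to 1.93, adjusted p = 0.160), and with the block it was 0.58 and called (SE 0.154, adjusted p = 0.00835). That call was lost without DMSO library 3 (0.0636) or UNC1999 library 1 (0.102). For UNC6852 it was 0.40 (SE 0.174, adjusted p = 0.991 by group and 0.193 with the block) and not called. One of its 2 promoters in the RefSeq table, at chr3:192409598-192409847 on the minus strand, is shown for comparison with FGF13. Both windows lie inside the gene coordinates given above, so the outermost annotated start is not covered. It has 77.2% G and C, 28 CpG dinucleotides and 1 GC box (capitals). The other start carries 1 octamer match 46 bases upstream and 1 GC box, in a window of which 58 bases lie in GENCODE 29 exons.
FGF12: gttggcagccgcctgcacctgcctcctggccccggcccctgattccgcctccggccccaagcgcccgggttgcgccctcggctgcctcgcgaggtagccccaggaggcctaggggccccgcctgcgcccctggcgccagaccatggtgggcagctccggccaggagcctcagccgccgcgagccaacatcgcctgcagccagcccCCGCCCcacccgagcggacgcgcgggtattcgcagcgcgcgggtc

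FGF11 (ENSG00000161958, chromosome 17, 7438273 to 7444937, plus strand), the third homologous factor, was not called in any comparison. It measured 16.2, 17.5 and 13.5 CPM in DMSO, 16.0, 18.4 and 16.4 with UNC6852, and 14.3, 16.1 and 14.9 with UNC1999, and all 3 groups overlapped. The log2 fold change was -0.06 for UNC1999 (95% interval -0.30 to 0.18) and 0.11 for UNC6852 (-0.13 to 0.34) by group. FGF11 overlaps entries on the same strand: ENSG00000272884 overlaps 5432 of its bases and had 102.0% of its count, and ENSG00000262880 overlaps 5809 and had 60.5%. Which of these entries the reads in the overlap came from cannot be told apart. Of 8 voltage-gated sodium channel genes, the partners of the homologous factors, 4 passed the filter and none was called in any comparison in either fit. Of all genes, at most 0.719% were called in any comparison by group. With the block 13.5% were called with UNC1999, 2.99% with UNC6852 and 2.91% between the compounds. So few channel genes without a call are near these shares. SCN8A was the highest, at 26.0 ± 3.40 CPM in DMSO, 25.5 ± 2.97 with UNC6852 and 28.4 ± 3.23 with UNC1999, and SCN3A had 0 reads, which allows a level of up to 0.00491 CPM over the summed depth.

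Among the receptors, FGFR4 had the most reads, at 342.0 ± 18.7 CPM in DMSO, 408.0 ± 45.0 with UNC6852 and 392.0 ± 38.0 with UNC1999 (SD, n = 3). FGFR1 followed at 225.0 ± 9.06 CPM in DMSO, then FGFR3 at 112.0 ± 5.71 and FGFR2 at 77.9 ± 8.08. Of 7 receptors and co-receptors, 6 were tested and none was called by group, where 0.719% of all genes were with UNC1999 and 0.0% with UNC6852. With the block FGFR4 was higher with UNC1999 (log2 fold change 0.19, adjusted p = 0.0121) and with UNC6852 (0.25, adjusted p = 0.00595). It was the only 1 of the 6 called with either compound, where 7.04% and 2.01% of all genes were called higher. The UNC1999 call was lost without DMSO library 2 (0.134) or 3 (0.173) or UNC1999 library 2 (0.105) or 3 (0.0757), and the UNC6852 call without DMSO library 2 (0.0839) or 3 (0.141) or UNC6852 library 2 (0.0698) or 3 (0.0516).

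Of 17 genes that carry or build heparan sulfate, 0 were called by group, where 0.719% of all genes were with UNC1999 and 0.0% with UNC6852. With the block 4 were higher and 2 lower with UNC1999 (7.04% and 6.46% of all genes were), and 1 was higher with UNC6852 (2.01% of all genes). The median log2 fold change of the 17 was 0.05 with UNC1999 and 0.09 with UNC6852. The glypican GPC6 was higher with both, from 4.90 ± 0.751 CPM to 7.13 ± 1.30 with UNC6852 and 7.38 ± 2.3 with UNC1999 (log2 fold changes 0.53 and 0.58, adjusted p = 0.00485 and 0.000277 with the block). The UNC6852 call of GPC6 was lost without DMSO library 1 (0.0787). With the block the glypican GPC4 was higher with UNC1999 by 0.28 (adjusted p = 0.000170), the chain-building enzyme EXT2 by 0.23 (0.00239) and the extracellular sulfatase SULF1 by 0.46 (0.00979). The core proteins SDC4 and SDC1, which carry the chains as syndecans, had log2 fold changes of -0.29 and -0.30 with UNC1999 in the same fit (adjusted p = 0.000276 and 0.00226). Calls were lost without 1 library for EXT2 (UNC1999 library 2, 0.0526), SDC1 (DMSO library 2, 0.0893, or UNC1999 library 2, 0.0671) and SULF1 (DMSO library 1, 0.127, or UNC1999 library 1, 0.0726, or 3, 0.0613).

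Feedback and target genes of ERK moved in both directions. Of 21, 1 was lower with UNC1999 by group, where 0.401% of all genes were. This was DUSP4, a phosphatase that switches ERK off, at 9.95, 11.6 and 16.9 CPM in DMSO, 10.5, 8.86 and 11.1 with UNC6852, and 5.79, 7.29 and 7.25 with UNC1999. The UNC1999 libraries were the lowest of the 9. Its log2 fold change was -0.92 (SE 0.180, adjusted p = 0.0397), and the call was lost without DMSO library 2 (0.0877) or 3 (0.126), UNC6852 library 3 (0.0738), or UNC1999 library 1 (0.0631), 2 (0.0885) or 3 (0.128), but not in the fit with the block. With the block 6 were higher and 2 lower with UNC1999, and 5 higher and 0 lower with UNC6852, beside 7.04%, 6.46%, 2.01% and 0.984% of all genes. Some of these calls depended on which libraries were kept. In the 9 fits that left out 1 library, the UNC1999 calls of SPRED1, PHLDA1 and SPRED2 were lost in 7, 5 and 2. The UNC6852 call of PHLDA1 was lost in 7. The median log2 fold change of the 21 was 0.04 and 0.09. CCND1 was higher with both compounds with the block, as was SPRY3, a Sprouty-type inhibitor of the pathway. For SPRY3 the log2 fold changes with the block were 0.45 with UNC1999 (adjusted p = 2.91e-05) and 0.35 with UNC6852 (adjusted p = 0.00548). The latter call was lost without DMSO library 3 (0.0529). With the block MYC was lower with UNC1999 (-0.42, adjusted p = 1.79e-05) and higher with UNC6852 than with UNC1999 (0.50, adjusted p = 3.35e-06). It was not called by group, and its libraries overlapped in both comparisons. Between the compounds 3 of the 21 (MYC, DUSP4 and EGR1) were higher in UNC6852 with the block and 0 lower, where 2.17% and 0.74% of all genes were. The EGR1 call there was lost in 6 of the 9 fits that left out 1 library. The transcription factor ETV1 was higher with UNC1999 with the block (0.28, adjusted p = 0.000269). EGR1 and FOS, genes that ERK switches on within minutes, were higher with UNC6852 with the block. EGR1 measured 69.5, 77.0 and 64.5 CPM in DMSO, 83.9, 109.0 and 92.6 with UNC6852, and 63.8, 84.5 and 86.8 with UNC1999, and only the UNC6852 libraries all lay above DMSO (0.43, adjusted p = 0.00276, lost without UNC6852 library 1 at 0.0677). FOS had overlapping groups (0.21, adjusted p = 0.0202), and its call was lost without DMSO library 3 (0.289) or UNC6852 library 1 (0.0574), 2 (0.0786) or 3 (0.0750).

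Of 8 transcription regulators of pluripotent cells, some known to act on FGF4, ZIC2 was the one called by group, and it was lower with UNC1999. Of all genes, 0.401% were called lower in that fit. With the block 2 of the 8 were higher and 1 lower with UNC1999, where 7.04% and 6.46% of all genes were. With UNC6852 1 was higher and 1 lower, where 2.01% and 0.984% of all genes were. ZIC2 measured 54.4, 49.1 and 50.6 CPM in DMSO, 43.4, 35.0 and 39.3 with UNC6852, and 37.1, 33.3 and 35.6 with UNC1999. All treated libraries were below all DMSO libraries. The log2 fold change was -0.54 for UNC1999 (SE 0.0885, adjusted p = 0.0198 by group) and -0.39 for UNC6852 (adjusted p = 5.16e-05 with the block). The call by group was lost without DMSO library 1 (0.0896), 2 (0.0518) or 3 (0.0731), or UNC1999 library 2 (0.0716) or 3 (0.0971), and with the block it held without each. SOX2 was higher with UNC1999 (0.27, adjusted p = 0.000482) and with UNC6852 (0.25, adjusted p = 0.00657) with the block, the latter lost without DMSO library 1 (0.0589) or UNC6852 library 1 (0.114). PRDM14 was higher with UNC1999 with the block (0.34, adjusted p = 1.13e-05). It was not called by group, and its UNC1999 libraries overlapped with DMSO.

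**Figure D4:**
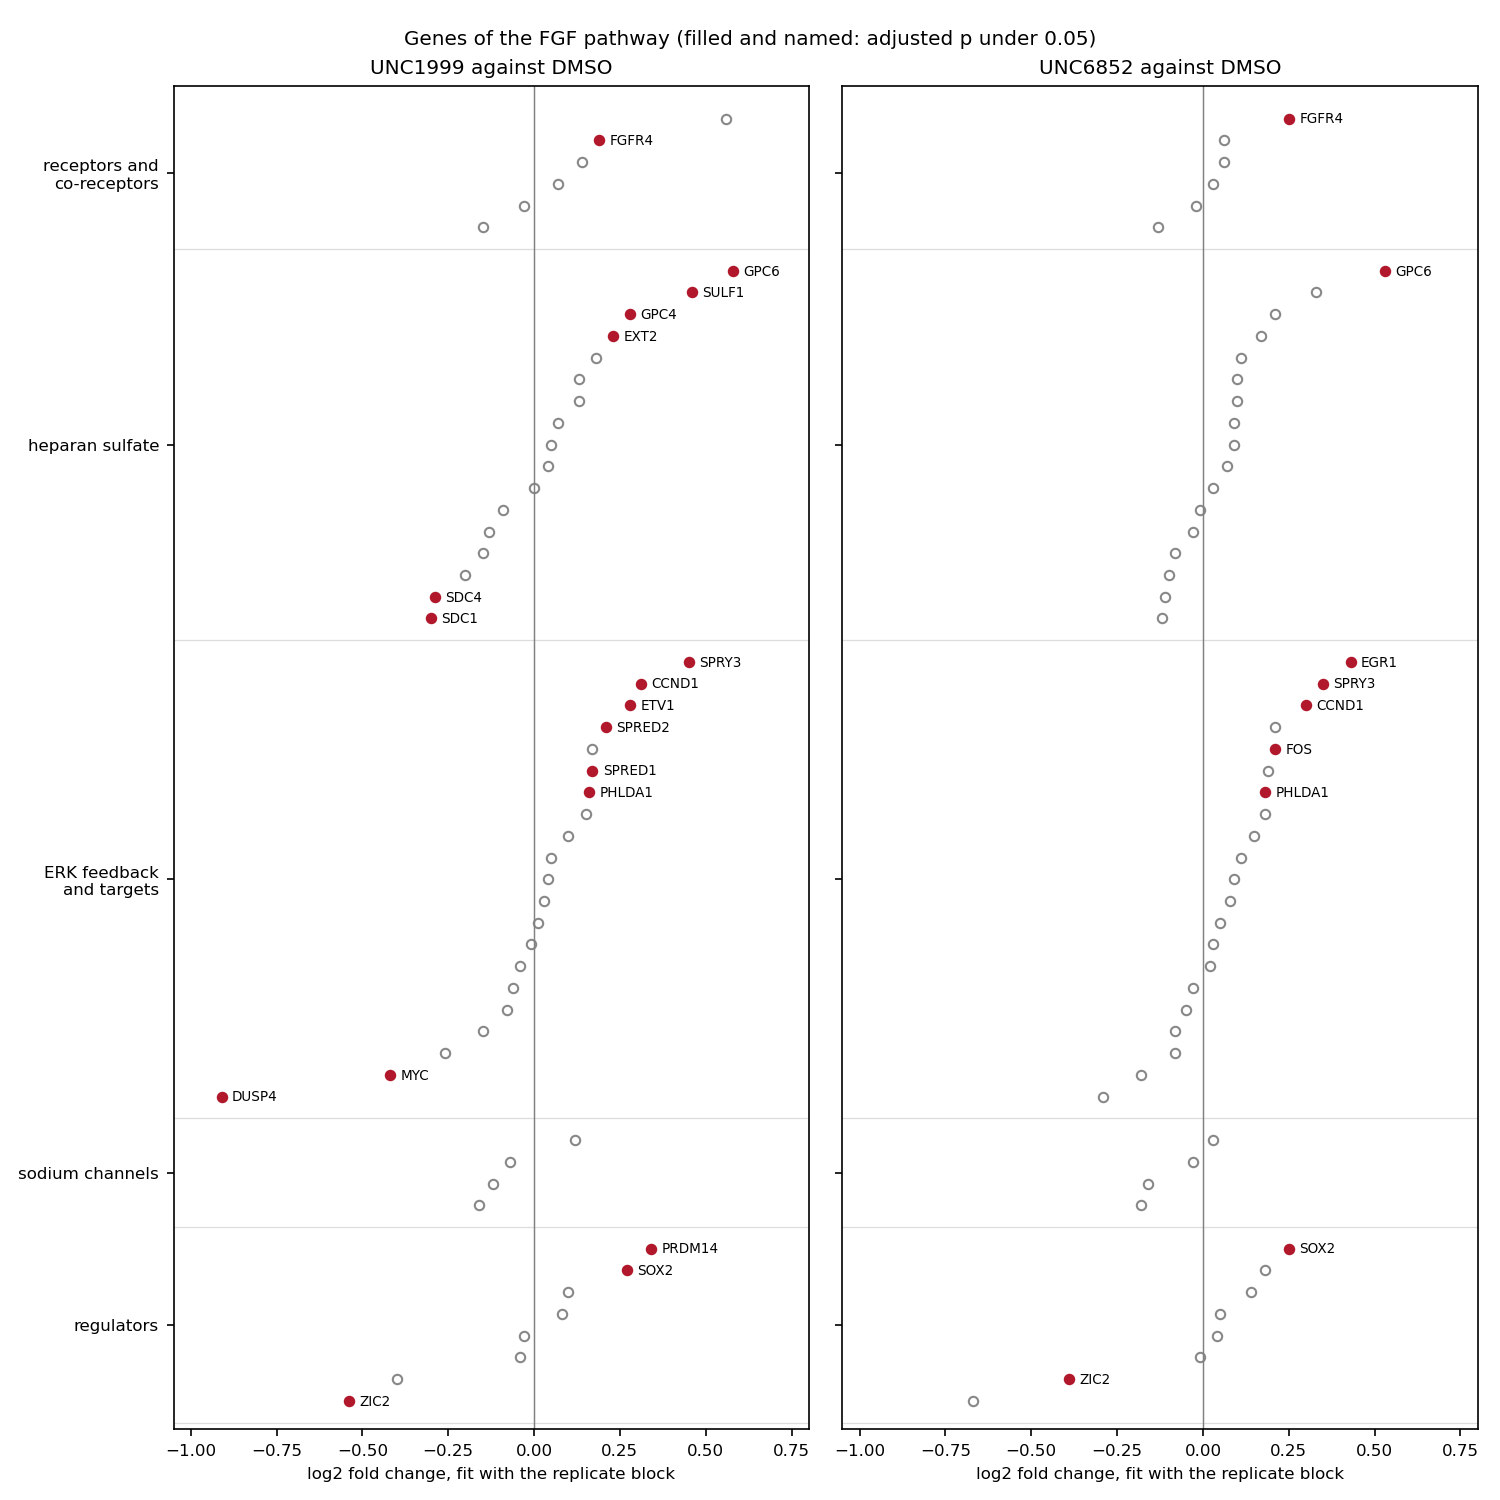
Log2 fold change (x axis) from the fit with the replicate block for the tested genes of 5 pathway lists (bands, sorted by value within each), with UNC1999 (left) and UNC6852 (right) against DMSO; filled and named points have an adjusted p under 0.05. Most genes lie within 0.25 of 0, DUSP4 with UNC1999 stands farthest out among the named genes (-0.91), and the sodium channel band holds no filled point.

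For each member called in any comparison, the genes with the most similar course were found by the root mean square difference of centred log2 CPM over the 9 libraries, among 14533 to 14534 genes with a symbol and a mean of at least 1 CPM. All genes share these 9 libraries and their scaling, and the order is a description. Closest to FGF4 were the protein convertase PCSK5 (0.0568), the transporter gene SLC16A9 (0.0626) and SH3D19 (0.0643), where the median gene differed by 0.256. PCSK5 measured 27.3, 33.4 and 38.1 CPM on average in DMSO, UNC6852 and UNC1999. Closest to FGF2 were the phosphofructokinase gene PFKP (0.0483), ZNHIT6 (0.0485) and NFATC1 (0.05). For FGF19 they were MCUB (0.0527), OTULINL (0.0572) and MAP3K15 (0.0637), and for FGF13 ACSL4 (0.0651), EHHADH (0.0652) and again OTULINL (0.0666). For FGF12 the closest was BBX (0.0906), for FGF17 TAPBPL (0.0837) and for FGF18 the acetylcholine receptor subunit CHRNB4 (0.131).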

How the data were processed

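RNA-seq was measured in 9 bulk libraries, 3 per group, which the labels call biological replicates. The authors deposited raw read counts, as whole numbers, for each gene entry. Per the submitters' processing notes, the tools were Trim Galore 0.6.10 (a trimmer) and HISAT2 2.2.1 (an aligner), with GRCh38 as the build; the counting tool, its annotation and any use of strand were not given in the sources used here. Labels name an rRNA-depletion kit in the protocol and polyA RNA as the molecule, and which of them applies was not settled. No entry lacked a gene name.

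Counts were filtered with filterByExpr, scaled by TMM and fitted in edgeR 4.0.16 (R 4.3.3) over all 9 libraries with group as the only term, robust quasi-likelihood, two-sided tests and Benjamini-Hochberg adjustment over 24187 genes. The biological coefficient of variation was 13.2% with 6 residual degrees of freedom, and 6.09% with 4 when the replicate number was a block. The 9 correlations of deviations between libraries with the same number were 0.106 to 0.472, and the 18 between different numbers -0.324 to 0.0753, so blocked values are given where they change a call. No label says that libraries of 1 number come from 1 experiment, and this pairing comes from the data. DESeq2 1.42.0, limma-voom (limma 3.58.1), other scalings and filters, and leaving out libraries were alternatives. The fitting steps were tested on simulated data.

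The members, gene lists and tests were chosen with earlier results of these data known. Named were all 10 members, up to 6 called genes of each pathway list with the smallest p, neighbours within 100.0 kb, and for each called member the 3 most similar genes, of which some are printed. Other genes with values (FGFR1, FGFR2, FGFR3, KLB, KL, SCN8A, SCN3A, FOS, SPRED1, SPRED2, PHLDA1 and further FGF genes) were picked with their values in view, after those were seen. A further list, of genes that relay the signal, is not reported here. Gene coordinates are those of the GRCh38 annotation, and promoter sequences are from RefSeq.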

Additional observations from a re-analysis of the deposited data

How the results depend on the processing

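The calls and log2 fold changes of the members were recomputed under 39 settings, 21 by group and 18 with the replicate block; FGF22 was not tested under 1 of them, a filter of 1 CPM in 3 libraries. Marker sums, read ratios and the likeness order were not recomputed. Members called higher with UNC1999 numbered 2 by group, 1 with only the 6 libraries compared, at an adjusted p under 0.01, with library size only or with upper-quartile scaling, and 5 with the replicate block. With the block they were also 5 by DESeq2, RLE scaling or limma-voom, and 4 with library size only or upper-quartile scaling. Members called lower numbered 0 by group and 1 with the block and each of its 5 alternatives. For UNC6852 the block and each of its 5 alternatives gave 3 higher and 1 lower, against 0 and 0 by group. Between the compounds, 1 was lower with DESeq2 by group and with the block and its alternatives, and 1 was higher with the block and with it under limma-voom, library size only or upper-quartile scaling. Leaving out libraries gave 0 to 5 higher and 0 to 2 lower with UNC1999, 0 to 3 and 0 to 1 with UNC6852, and 0 to 1 and 0 to 1 between the compounds, over both fits. No called value of a member changed direction, and 35 uncalled values of members changed sign. In all 39 settings FGF4, FGF13, FGF19, FGF12 and FGF17 were above DMSO and FGF2 and FGF18 below with UNC1999. Depth limits FGF22 most, with 22 to 70 reads per library.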

Other observations

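Of the 12 FGF genes outside the 10 described, 6 passed the filter and 0 were called in any comparison in edgeR's quasi-likelihood test by group or with the block. FGF10, a ligand of the FGF7 subfamily known from lung and limb, measured 0.384 ± 0.0898 CPM in DMSO, 0.242 ± 0.0801 with UNC6852 and 0.177 ± 0.0360 with UNC1999 (SD, n = 3), and all treated libraries lay below DMSO. Of all genes, 5.44% were separated downwards in this way with UNC6852 and 9.07% with UNC1999. FGF10 had only 170 reads over all 9 libraries. Its log2 fold change for UNC1999 was -1.12 by group (adjusted p = 0.249) and -1.09 with the block (adjusted p = 0.0910). FGF16, a ligand of the FGF9 subfamily, was the most abundant of the 12 by read count, at 1.2 CPM in DMSO, 1.25 with UNC6852 and 1.11 with UNC1999. FGF5, a gene often read as a mark of the primed state in mouse cells, and FGF6 had 0 reads in all 9 libraries together, which allows a level of up to 0.00491 CPM (3 counts, counting error only). FGF7 and FGF20 had 1 read each, FGF3 had 32 and FGF14 had 54.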
